A study of Mus musculus with 778 samples.

Results

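The 10 genes described here encode proteins of the acentrosomal spindle pole: the kinases *Aurka*, *Plk1* and *Plk4*, the microtubule assembly factors *Tacc3*, *Ckap5* and *Tpx2*, the scaffold proteins *Pcnt* and *Cep192*, and *Nedd1* and *Tubg1* of the γ-tubulin machinery. They were chosen by name from the 23201 genes of the count table, and all 10 were present in it. Mouse oocytes lose their centrioles, the cylinders at the core of a centrosome, and build the meiotic spindle from many microtubule organizing centres without centrioles. These centres are assembled on pericentrin, recruit γ-tubulin, which starts new microtubules, and are fragmented and spread around the spindle under the control of Aurora A and the Polo-like kinases. The oocytes measured here were still arrested in prophase of meiosis, before any spindle forms, a time in which they store mRNA for later use.

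Single wild-type oocytes of ICR mice were picked by hand and measured by single-cell RNA-seq with unique molecular identifiers (UMIs), tags by which each captured mRNA molecule is counted once. Non-growing oocytes (NGO, 46 cells, under 20 μm in diameter) came from mice 3 to 4 days old. Growing oocytes of 30 to 45 μm (GO1, 51 cells), 50 to 55 μm (GO2, 26 cells) and 60 to 65 μm (GO3, 44 cells) and fully-grown oocytes over 70 μm (FGO, 56 cells) came from mice 3 to 4 weeks old, so growth stage and mouse age cannot be told apart in any comparison with NGO. The cells were prepared in 4 libraries, but the name of a cell holds only its stage. Each stage is therefore 1 pooled sample here, and no test between stages could be made.

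Levels are given in CPM, the UMIs of a gene in every 1000000 UMIs of a stage, all its cells summed. A CPM is a share of the measured mRNA and gives no number of molecules per oocyte. The stage sums held 24976634 to 64311908 UMIs. Intervals are exact at 95% and cover counting error only. The 296 cell barcodes of the 4 libraries were drawn from 96 sequences, all 96 of which were used in more than 1 library. All 10 oocyte marker genes were above 10 CPM in every stage. The 8 granulosa cell markers added up to 14.01 CPM in NGO, 42.7 at GO1, 35.3 at GO2, 34.7 at GO3 and 20.2 at FGO, with at most 2 of them at 10 CPM or more (the highest was *Cyp19a1* at 16.3 CPM in GO1). The 6 stromal and theca markers added up to 0.461 to 7.74 CPM, and of the 6 blood and endothelial markers only *Pecam1* (4.60 to 48.8 CPM) was above 1 CPM.

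The GO1 cells did not form 1 group in depth. 6 cells held 2380942 to 3898137 UMIs each and 70.9% of all GO1 UMIs, while the other 45 held 22279 to 782536. Over 8671 genes the sum of the 6 deep cells lay nearer to GO2 (root mean square difference of log2(CPM + 1) of 0.38) than to the other GO1 cells (0.76). The other GO1 cells lay about as far from GO2 (0.74) and GO3 (0.77) as from the deep ones. The GO2 sum itself drew 73.2% of its UMIs from its 10 deepest cells. The labels give no reason for the gap in depth. The members are therefore also described over cells with 200000 to 1500000 UMIs only, a range set after the data were seen that takes in 36 NGO, 14 GO1, 16 GO2, 33 GO3 and 33 FGO cells and leaves out the 6 deep ones. These are called cells of matched depth, although their median depth still ran from 340357 UMIs in GO1 to 771026 in GO3.

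**Figure D1:**
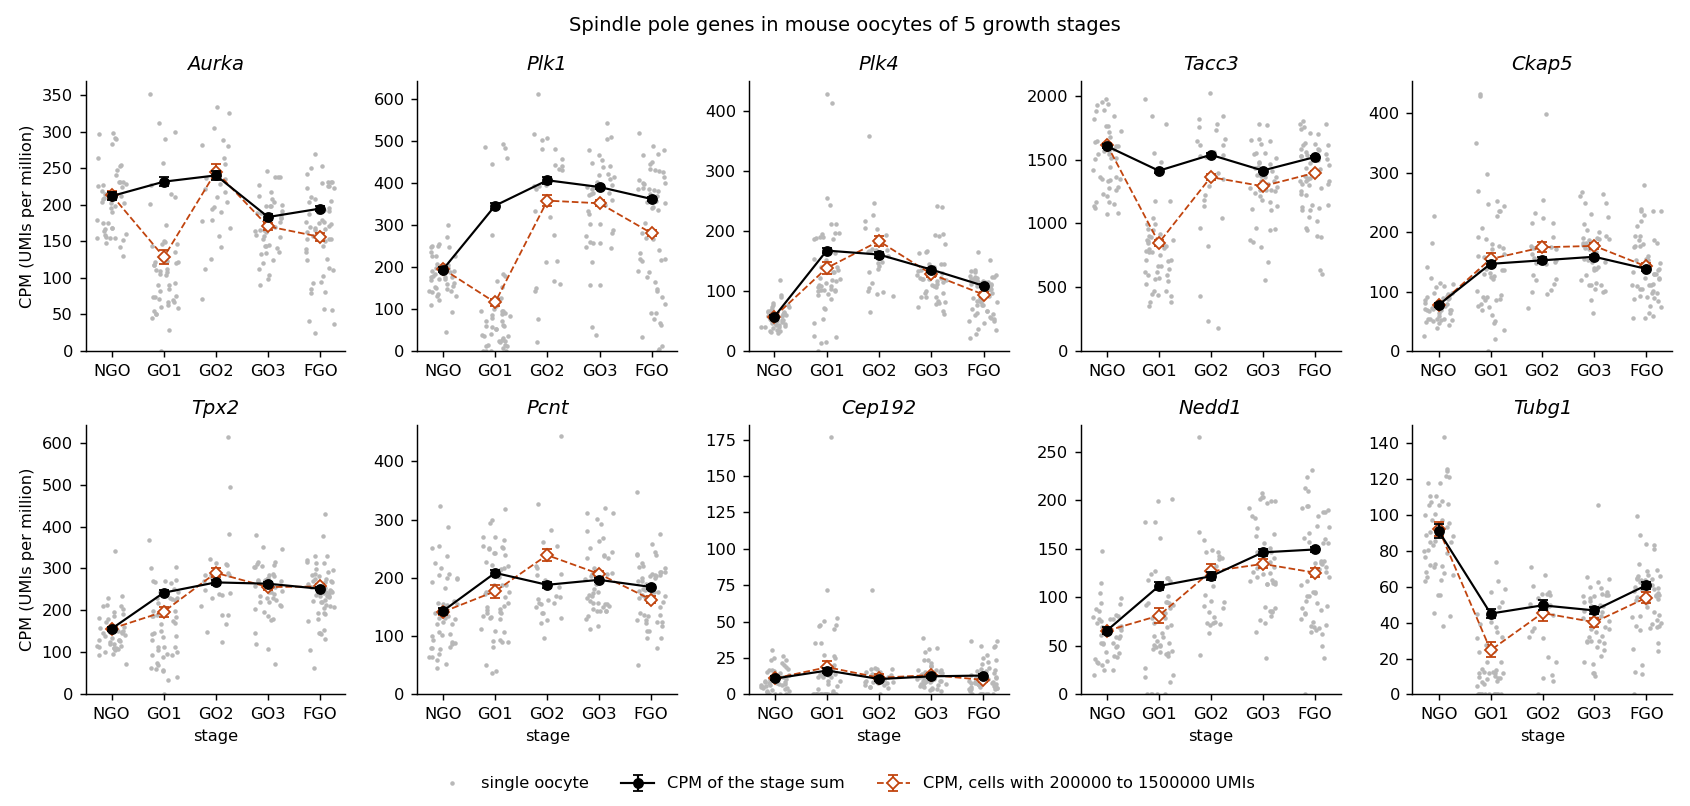
Level of each of the 10 genes in CPM (vertical axis, linear from 0) by growth stage. Grey points are single oocytes, black circles the stage sums and open diamonds the cells of matched depth, both with 95% counting intervals. The circles and diamonds part most in GO1, where *Plk1* stood at 347 CPM in the sum and 115.8 CPM at matched depth.

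Among the kinases, *Plk4* was higher in GO1 than in NGO in the sums and in each alternative way of summing or scaling the cells. *Plk4* (chromosome 3, 40603941 to 40620805, plus strand, NCBIM37) encodes Polo-like kinase 4, which starts centriole duplication in somatic cells and cooperates with Aurora A at the acentriolar centres of oocytes. Over single cells, its level ran from 30.5 through a median of 58.2 to 117.7 CPM in NGO, from 0 through 120 to 429 in GO1, from 65.5 through 161 to 359 in GO2, from 61.3 through 120 to 242 in GO3 and from 21.6 through 100 to 165 in FGO. The ranges overlapped, but the upper quartile of NGO (64.9 CPM) lay below the lower quartile of each of the other stages (66.7 CPM or more). In stage sums *Plk4* had 57.5 CPM in NGO (interval 54.5 to 60.5), 167 in GO1 (163 to 172), 161 in GO2 (155.8 to 166), 135.7 in GO3 (132.5 to 138.98) and 108.7 in FGO (106.1 to 111.3). It was thus 2.91-fold higher in GO1 than in NGO (2.74 to 3.09) and 1.89-fold higher in FGO than in NGO (1.79 to 2.003). At matched depth the GO1 level was 138.3 CPM and the difference from NGO was 2.42-fold (2.21 to 2.64). In the sums the order of the stages was GO1, GO2, GO3, FGO, NGO, and only GO1 and GO2 did not differ beyond the counting interval of their ratio (1.04, 0.998 to 1.09). At matched depth GO2 stood first, 1.32-fold above GO1 (1.22 to 1.44), and the median over cells was also higher in GO2. Neighbours down to FGO had overlapping quartile ranges over cells, and FGO and NGO did not.

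*Plk1* encodes Polo-like kinase 1, which takes part in the resumption of meiosis and in the growth of spindle poles, and lies on chromosome 7 (129302951 to 129313389, plus strand). Its direction between NGO and GO1 depended on which GO1 cells were counted. In stage sums it had 194 CPM in NGO, 347 at GO1, 407 at GO2, 391 at GO3 and 362 at FGO. Over single cells the median was 181 CPM in NGO (45.4 to 301), 72.6 in GO1 (0 to 494), 393 in GO2 (20.4 to 613), 375 in GO3 (37.5 to 544) and 339 in FGO (0 to 520). The sum placed GO1 1.78-fold above NGO (1.72 to 1.85), whereas the median GO1 cell (72.6 CPM) lay below the lower quartile of NGO (150.1 CPM). At matched depth GO1 had 115.8 CPM, 1.69-fold lower than the 196 CPM of NGO (1.56 to 1.84), and GO2, with 359 CPM, was 3.10-fold higher than GO1 (2.85 to 3.38). The 6 deep GO1 cells had 277 to 494 CPM of *Plk1* and the other 45 had 0 to 184, with no overlap.

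*Aurka* (chromosome 2, 172181690 to 172196035, minus strand) encodes Aurora A, the kinase that activates Plk1 and is required for the poles of the oocyte spindle. Its stage sums stayed within a narrow range, with 212 CPM in NGO, 232 at GO1, 240 at GO2, 183 at GO3 and 195 at FGO. In single cells the median GO1 level was again the lowest, 111.4 CPM (0 to 352), against 206 in NGO (130 to 298), 214 in GO2 (71.4 to 334), 169 in GO3 (90.2 to 247) and 169 in FGO (25.1 to 270). At matched depth *Aurka* had 128.6 CPM in GO1 and was 1.66-fold higher in NGO (1.53 to 1.80) and 1.91-fold higher in GO2 (1.75 to 2.08). The 6 deep GO1 cells had 210 to 352 CPM, a level that 2 of the other 45 cells reached.

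The 250 bases before the start of the 3 kinase genes are printed here so that the 3 can be set side by side. The sequences are those of RefSeq on GRCm38.p6, another build than that of the counts, and 6 of the 10 genes had an entry (*Aurka*, *Plk1*, *Plk4*, *Tacc3*, *Ckap5* and *Pcnt*). Capitals mark the CCAAT box, a promoter element common in genes of the cell cycle.
*Aurka*, chr2:172370571-172370820, minus strand: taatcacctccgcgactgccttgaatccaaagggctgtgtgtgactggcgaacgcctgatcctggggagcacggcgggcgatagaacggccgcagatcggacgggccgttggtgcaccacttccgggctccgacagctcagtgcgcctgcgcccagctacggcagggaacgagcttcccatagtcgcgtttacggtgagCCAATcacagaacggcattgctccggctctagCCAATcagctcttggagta
*Plk1*, chr7:122159185-122159434, plus strand: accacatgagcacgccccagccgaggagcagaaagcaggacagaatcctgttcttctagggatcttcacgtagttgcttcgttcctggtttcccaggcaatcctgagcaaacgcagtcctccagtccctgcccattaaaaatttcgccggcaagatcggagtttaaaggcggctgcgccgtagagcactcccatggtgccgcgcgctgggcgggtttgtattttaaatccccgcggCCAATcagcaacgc
*Plk4*, chr3:40799701-40799950, plus strand: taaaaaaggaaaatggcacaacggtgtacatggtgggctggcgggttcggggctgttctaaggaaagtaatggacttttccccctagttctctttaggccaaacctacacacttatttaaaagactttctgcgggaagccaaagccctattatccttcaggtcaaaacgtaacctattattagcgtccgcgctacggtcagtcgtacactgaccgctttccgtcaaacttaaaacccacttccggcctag
The letters CCAAT, searched on both strands, occurred in 3 of the 6 promoters: 2 times in *Aurka*, beginning 51 and 19 bases before the start, once in *Plk1*, 14 bases before it, and once in *Ckap5*, 35 bases before it. The same letters occur in 33.9% of all 32841 mouse promoters of this length. TTTGAA, the core of the cell cycle genes homology region, was found in *Ckap5* (45 bases before the start; 16% of all promoters), and the E2F site GGCGGGAA in *Pcnt* (19 bases before the start; 1.85%). The E-box CACGTG (6.02%) was in none of the 6, and *Plk4* and *Tacc3* held none of the 4 motifs.

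*Tacc3* encodes a protein of the spindle lattice and of the liquid-like domain of oocyte spindle poles, and it is phosphorylated by Aurora A (chromosome 5, 34000777 to 34021644, plus strand). It was detected in all 223 cells. The stage sums were close together, with 1606 CPM in NGO (1590 to 1622), 1413 in GO1 (1399 to 1428), 1538 in GO2 (1523 to 1554), 1415 in GO3 (1405 to 1426) and 1520 in FGO (1511 to 1530). GO2 and FGO, and likewise GO3 and GO1, did not differ beyond the counting interval of their ratio. The single cells of GO1 stood lower than the sum, with a median of 784 CPM (352 to 1972), against medians of 1530 in NGO (1074 to 1977), 1525 in GO2 (182 to 2024), 1321 in GO3 (559 to 1776) and 1392 in FGO (602 to 1804). In cells of matched depth *Tacc3* had 848 CPM in GO1, 1.91-fold lower than in NGO (1.85 to 1.97), and GO2 was 1.61-fold higher than GO1 (1.55 to 1.66).

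The partner of Tacc3, the microtubule polymerase chTOG, is encoded by *Ckap5* (chromosome 2, 91366919 to 91460821, plus strand). *Ckap5* was higher in every stage after NGO, and its level in GO1 was nearly the same in deep and other cells. The sums were 77.5 CPM in NGO (74.1 to 81.02), 146.6 in GO1 (142.01 to 151.2), 152.5 in GO2 (147.7 to 157.4), 158.5 in GO3 (155.01 to 162) and 138.1 in FGO (lower bound 135.2). In the sums GO1, GO2 and GO3 followed each other with counting intervals of the ratio that included 1. GO1 was 1.89-fold above NGO in the sums (1.79 to 1.998) and 2.01-fold above it at matched depth (1.85 to 2.18), to either side of the 2-fold limit used below. The gene holds the small nucleolar RNA Snord67 on the same strand, with 93 annotated exon bases in common out of 9462.

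*Tpx2* encodes the activator of Aurora A that is released by Ran-GTP and promotes microtubule assembly near chromosomes (chromosome 2, 152673700 to 152721057, plus strand). It had 156.4 CPM in NGO, 242 at GO1, 267 at GO2, 264 at GO3 and 252 at FGO. From NGO to GO1 it was 1.55-fold higher in the sums (1.49 to 1.61) and 1.26-fold higher at matched depth (1.17 to 1.35), while in cells thinned to 20000 UMIs the log2 difference was 0.01. In the sums GO2 and GO3 did not differ beyond their counting interval. *Tpx2* was 1.61-fold higher in FGO than in NGO (1.55 to 1.67), a value that was 1.64-fold at matched depth (1.57 to 1.71).

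Pericentrin, the scaffold on which the acentriolar centres are built, is encoded by *Pcnt* (chromosome 10, 75813999 to 75905657, minus strand). *Pcnt* had 143.3 CPM in NGO, 209 at GO1, 188 at GO2, 197 at GO3 and 184 at FGO. At matched depth it had 177 CPM in GO1 and 239 in GO2. Its quartile ranges over cells overlapped between every pair of neighbours in the order of the stages. *Cep192* (chromosome 18, 67959761 to 68044822, plus strand), whose product recruits Aurora A and Plk1 to poles, had the fewest UMIs of the 10, with 277 in NGO, 440 at GO1, 265 at GO2, 621 at GO3 and 837 at FGO. These correspond to 10.99 CPM (9.74 to 12.4), 16.4 (14.9 to 18.1), 10.6 (9.37 to 11.97), 12.5 (11.5 to 13.5) and 13.015 (12.1 to 13.9). Only the difference between GO1 and FGO, the highest stages, exceeded the counting interval of neighbours. The highest value of a single cell, 176 CPM, came from a shallow GO1 cell of 39670 UMIs, in which few UMIs make a high CPM. At matched depth GO1 had 18.8 CPM of *Cep192* (15.3 to 22.7). After each cell was thinned to 20000 UMIs, *Cep192* was seen in 14.3% to 27.5% of the cells of a stage, so the spread between cells could not be resolved at this depth.

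*Nedd1* encodes the adaptor that brings γ-tubulin to poles and to the spindle (chromosome 10, 92147491 to 92185165, minus strand). In the sums it was the only member with its highest level in fully-grown oocytes, within counting error of GO3. At matched depth *Nedd1* was highest in GO3, with 134.6 CPM against 125.5 in FGO. Single cells had a median of 62.7 CPM in NGO (20.6 to 148.3), 71.8 in GO1 (0 to 202), 99.1 in GO2 (40.8 to 265), 130.8 in GO3 (37.5 to 208) and 126.9 in FGO (0 to 232). The sums gave 65.9 CPM in NGO (62.8 to 69.2), 111.8 in GO1 (107.8 to 115.8), 121.8 in GO2 (117.5 to 126.2), 146.5 in GO3 (143.1 to 150) and 149.4 in FGO (146.5 to 152.5), and of the neighbours only FGO and GO3 did not differ beyond counting error. FGO was 2.27-fold above NGO in the sums (2.15 to 2.39) and 1.91-fold above it at matched depth (1.80 to 2.04), which is under the 2-fold limit.

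*Tubg1* encodes γ-tubulin 1, the template of microtubule nucleation (chromosome 11, 100981252 to 100987733, plus strand). Its level was highest in NGO, 1.496-fold above that of FGO, the next in order (1.42 to 1.58). Every NGO cell held the gene, at 38.2 to 143.4 CPM with a median of 86.9. In GO1 37 of the 51 cells held it (72.5%, 58.3 to 84.1), at a median of 12.2 CPM and at most 73.7. Medians in the later stages were 48.9 CPM in GO2 (0 to 70.9), 43.1 in GO3 (10.1 to 105.6) and 55.1 in FGO (0 to 99.8). In stage sums *Tubg1* had 91.1 CPM in NGO (87.4 to 94.9), 45.1 in GO1 (42.6 to 47.7), 49.7 in GO2 (47 to 52.6), 46.9 in GO3 (45.0 to 48.8) and 60.9 in FGO (59.03 to 62.9). The GO1 level was 2.02-fold lower than that of NGO (1.88 to 2.17). At matched depth it was 24.7 CPM and 3.73-fold lower (3.14 to 4.47). In the sums GO2, GO3 and GO1 followed each other within counting error of their ratios, and FGO was 1.30-fold higher than GO3 (1.23 to 1.37). At matched depth GO2 was 1.84-fold higher than GO1 (1.51 to 2.25). With every cell thinned to 20000 UMIs, *Tubg1* was seen in 84.8% of NGO cells (71.1 to 93.7), 29.4% of GO1 (17.5 to 43.8), 46.2% of GO2 (26.6 to 66.6), 54.5% of GO3 (38.8 to 69.6) and 64.3% of FGO cells (50.4 to 76.6).

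The *Tubg1* count is uncertain in 1 respect. Its neighbour *Tubg2* (chromosome 11, 101017221 to 101023101, plus strand), the other γ-tubulin gene, is 93.3% identical in coding sequence (1265 of 1356 bases), and 13.9% of the stretches of 50 bases in *Tubg1* transcripts also occur in *Tubg2*. How reads shared by them were assigned is not given in the sources used here. *Tubg2* was the more abundant in UMIs, with 540 CPM in NGO, 132.6 at GO1, 179 at GO2, 181 at GO3 and 282 at FGO. The 2 genes together had 631, 178, 229, 228 and 342 CPM from NGO to FGO. Most of that sum was *Tubg2*, so its lower level after NGO cannot show how *Tubg1* alone changed. *Tubg1* made up 14.4% of that sum in NGO, 25.4% at GO1, 21.7% at GO2, 20.6% at GO3 and 17.8% at FGO.

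Within GO1, some members differed strongly between the deep cells and the others and some hardly did. In the sum of the 6 deep cells *Plk1* was 4.68-fold higher than in the other 45 (4.34 to 5.05), *Tubg1* 2.65-fold (2.24 to 3.15), *Aurka* 2.36-fold (2.20 to 2.53) and *Tacc3* 2.09-fold (2.03 to 2.15). The ratio was 1.6 for *Nedd1* (1.46 to 1.75), 1.47 for *Tpx2* (1.39 to 1.56), 1.39 for *Plk4* (1.29 to 1.49) and 1.21 for *Pcnt* (1.13 to 1.28). *Ckap5* had 143.2 CPM in the deep cells and 154.6 in the others (ratio 0.926, 0.865 to 0.992), and the interval of *Cep192* included 1 (0.871, 0.711 to 1.07). The link with depth was present in other stages too. Spearman's rank correlation of the CPM of a cell with its total UMIs, given as a description over 26 to 56 cells that share stage and libraries, was 0.52 to 0.68 for *Tacc3* in all 5 stages and 0.34 to 0.58 for *Plk1*, against −0.27 to 0.01 for *Ckap5*. The part of depth, library or cell size in these differences was not tested. At matched depth the GO1 level of *Plk1*, *Aurka*, *Tacc3* and *Tubg1* was below that of NGO and of GO2, in cells that were still shallower in GO1 (median 340357 UMIs) than in NGO (603686) and GO2 (448485).

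**Figure D2:**
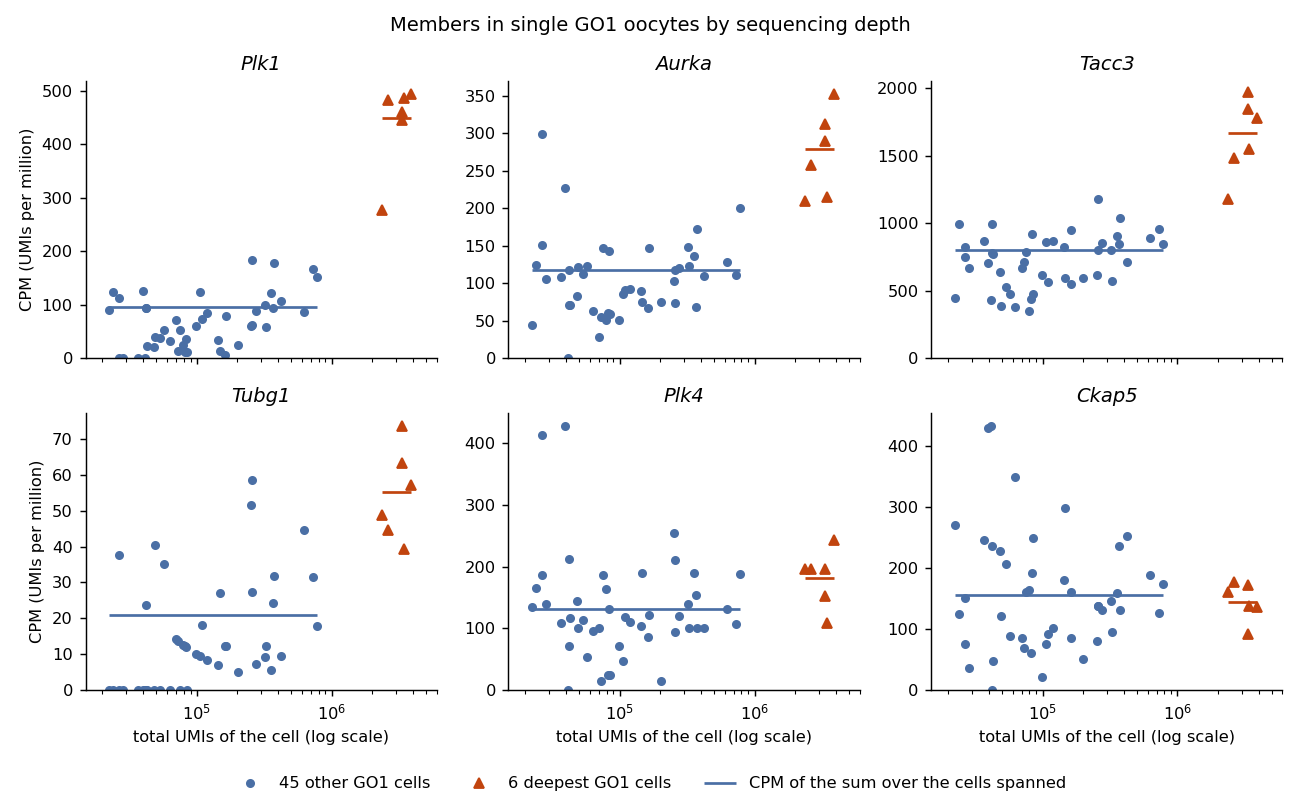
CPM of 6 members (vertical axes, linear from 0) against the total UMIs of each of the 51 GO1 oocytes (horizontal axis, log scale). Triangles are the 6 cells with 2380942 UMIs or more, circles the other 45 and horizontal lines the CPM of each sum. The triangles lie above all circles for *Plk1* and among them for *Plk4* and *Ckap5*.

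To set the members beside all genes, a rule of size was used: a gene passed where 1 of 2 stages had 2 times the CPM of the other or more, and 10 CPM or more itself. From NGO to GO1, 1 of the 10 members was higher (*Plk4*) and 1 lower (*Tubg1*), and the other 8 passed neither limit. Over all 8527 genes at 10 CPM or more, 20.6% were higher and 25.7% lower. In the sums the median log2 difference was 0.58 over the members and −0.14 over all genes. There 8 of 10 members were to some degree higher in GO1, against 6 of 10 at matched depth. The members' log2 differences at matched depth ran from −1.90 for *Tubg1* to 1.27 for *Plk4*, and the median over all genes was −0.30. The share of all genes higher to any degree was not counted. At matched depth *Plk4* and *Ckap5* were higher and *Tubg1* lower, where 22.7% of 8591 genes were higher and 33.1% lower. With size factors from DESeq2 or TMM factors, *Plk4* and *Ckap5* were past the limit and *Tubg1* was not, at log2 differences of −0.91 and −0.85 against −1.01 in the sums.

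No member passed the rule between neighbouring growing stages in the sums. The shares over all genes were 0.109% higher and 3.03% lower from GO1 to GO2 (7356 genes), 3.34% and 1.01% from GO2 to GO3 (7334 genes), and 2.41% and 3.54% from GO3 to FGO (7622 genes). The members' folds in these steps ran from 0.645 for *Cep192* to 1.17 for *Plk1* from GO1 to GO2, from 0.763 for *Aurka* to 1.2 for *Nedd1* from GO2 to GO3, and from 0.801 for *Plk4* to 1.30 for *Tubg1* from GO3 to FGO. At matched depth *Plk1* was past the limit from GO1 to GO2, where 4.45% of 7400 genes were higher and 10.6% lower. Between NGO and FGO *Nedd1* alone passed in the sums, against 11.3% of 8132 genes higher and 16% lower in FGO. At matched depth none of the 10 did, and the shares over all genes were not counted there for this comparison.

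**Figure D3:**
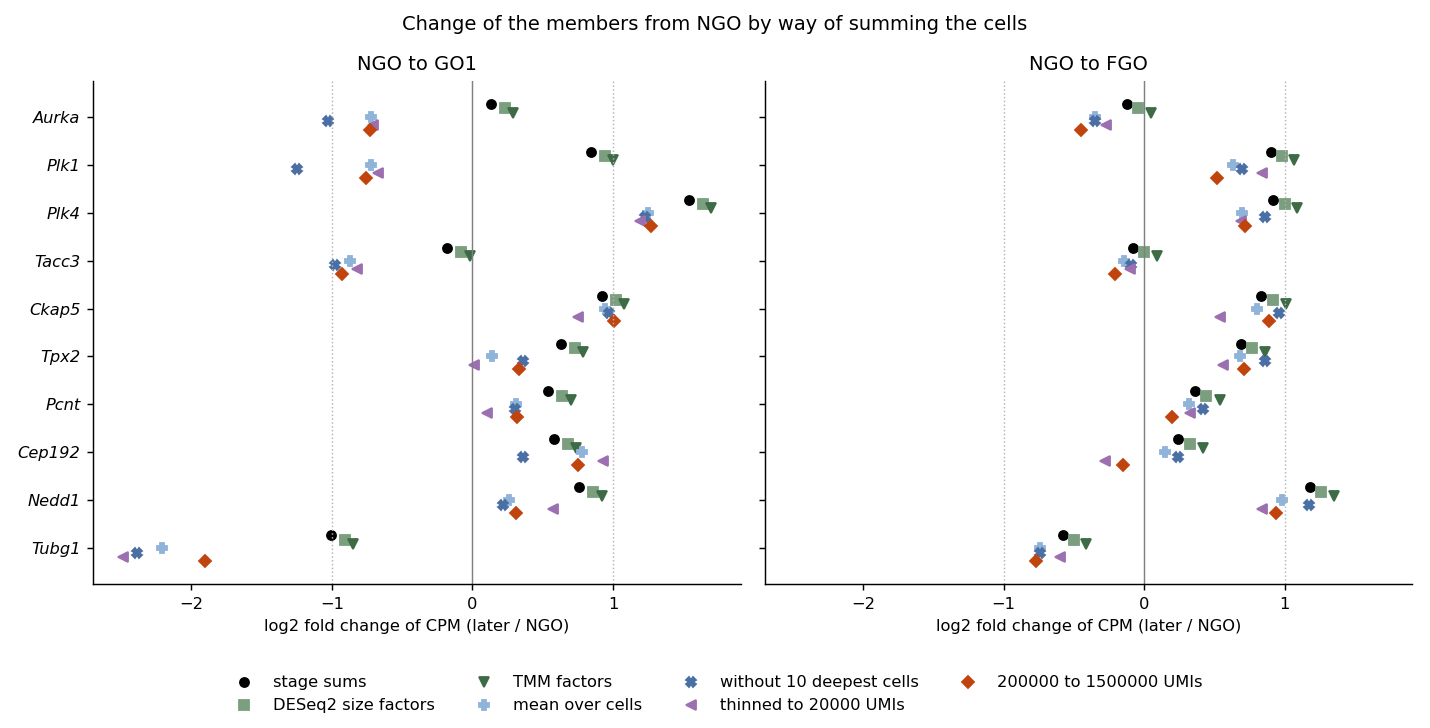
Log2 fold change of each member from NGO to GO1 (left) and from NGO to FGO (right) on the horizontal axes, with the 2-fold limits dotted. Symbols stand for 7 ways of summing or scaling the cells. In GO1 *Aurka* and *Plk1* lie on either side of 0 (for *Plk1* at −0.76 in matched cells and 0.84 in stage sums). Every other member keeps to 1 side in all 7, among them *Plk4* to the right and *Tubg1* to the left. The 7 ways use the same cells or a part of them.

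In the stage sums the pattern of *Plk4* over the 5 stages was most like those of *Zcchc10* and *Bcas1* among 8661 other genes at 10 CPM or more. The root mean square differences were 0.021 and 0.048 in centred log2(CPM + 1). Such small values are partly due to picking the closest of many genes over 5 values. Patterns at matched depth, where *Plk4* was highest in GO2, were not compared. *Zcchc10* had 329 CPM in NGO, 954 at GO1, 934 at GO2, 755 at GO3 and 618 at FGO. The nearest to *Tubg1* were *Nrbp1* (0.016) and *Pmm1* (0.028), and *Nrbp1* had 281, 138.3, 150, 141.1 and 185 CPM from NGO to FGO.

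The wider spindle machinery was described with 6 lists of 85 genes, of which 71 reached 10 CPM in NGO or GO1. From NGO to GO1 8 of these were higher, 16 lower and 47 neither, with a median log2 difference of 0.04 against −0.14 over all genes, and at matched depth 14 were higher and 24 lower, and with TMM factors 12 and 14. The shares over all genes, given above for both ways of summing, were 20.6% and 25.7% in the sums and 22.7% and 33.1% at matched depth. With TMM factors they were not counted.

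The γ-tubulin ring and augmin list, the machinery nearest to *Tubg1* and *Nedd1*, had 2 genes higher and 5 lower among 12, and a median of −0.82. Over all genes 20.6% were higher and 25.7% lower, with a median of −0.14. *Mzt2*, a small subunit of the γ-tubulin ring, had 11.2 CPM in NGO and 51.7 in GO1 (4.62-fold, 4.06 to 5.27), and the augmin subunit *Haus3* had 111.3 and 401 (3.60-fold, 3.46 to 3.76). Augmin branches new microtubules from existing ones, and another of its subunits, *Haus8*, was 4.54-fold lower (202 to 44.5 CPM, 4.26 to 4.84). *Tubg2* was 4.07-fold lower (3.93 to 4.23). The other 3 lower genes, named after their values were seen, were the ring subunit *Tubgcp2* (2.48-fold) and the augmin subunits *Haus5* (2.62-fold) and *Haus7* (2.78-fold). Subunits of the same complex thus differed in direction.

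In the pericentriolar scaffold list 1 of 10 genes was higher, *Nin* (ninein, a microtubule anchor), with 35.9 CPM in NGO and 125.1 in GO1, and 1 lower, *Cep72*, with 38.1 and 5.46. The products of the centriole assembly list build an organelle that mouse oocytes lose, and its presence in these stages was not measured. This list also had 1 of 10 higher, *Cenpj* (39.4 to 86.4 CPM), and 1 lower, *Spice1* (82.7 to 35.7 CPM). Of the 8 other spindle kinases and passenger complex genes, only *Aurkb*, the kinase of that complex, was past the limit, with 45.4 CPM in NGO and 20.6 in GO1. These counts, too, stand beside 20.6% of all genes higher and 25.7% lower.

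The Ran pathway list had 0 higher and 4 lower of 14 genes, where 20.6% of all genes were higher and 25.7% lower. Ran-GTP, made around chromosomes, releases Tpx2 and other assembly factors from importins. *Ran* itself had 1425 CPM in NGO, 312 at GO1, 344 at GO2, 524 at GO3 and 739 at FGO, and *Rangap1*, its GTPase activator, had 108.1, 6.13, 5.41, 5.80 and 20.1. *Rangap1* was 17.6-fold lower in GO1 than in NGO (15.1 to 20.8) and *Ran* 4.57-fold lower (4.46 to 4.68), while *Tpx2* was 1.55-fold higher. *Rcc1* (3.78-fold) and *Hmmr* (2.21-fold), named after their values were seen, were the other 2 lower genes.

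Among the 17 microtubule end and lattice genes 4 were higher and 4 lower, against 20.6% and 25.7% of all genes. *Camsap2*, a binder of microtubule minus ends, had 5.12 CPM in NGO and 28.2 in GO1 (5.51-fold, 4.57 to 6.70), and *Tacc2*, a relative of *Tacc3*, had 17.5 and 59.2 (3.39-fold, 3.04 to 3.77). *Stmn1*, which encodes the microtubule destabilizer stathmin, was 3.45-fold lower (3.06 to 3.89) and the pole protein gene *Wdr62* 3.33-fold lower (2.74 to 4.06). Named after their values were seen, *Aspm* (3.29-fold) and *Camsap1* (3.18-fold) were also among the higher genes and *Mapre3* (2.99-fold) among the lower ones. All 15 genes chosen from the 6 lists by rank kept their direction and their side of the limit at matched depth. This was no independent check, because the genes were picked for large changes and the cells are part of the same cells. In NGO the cells of matched depth held 23961471 of 25198132 UMIs.

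**Figure D4:**
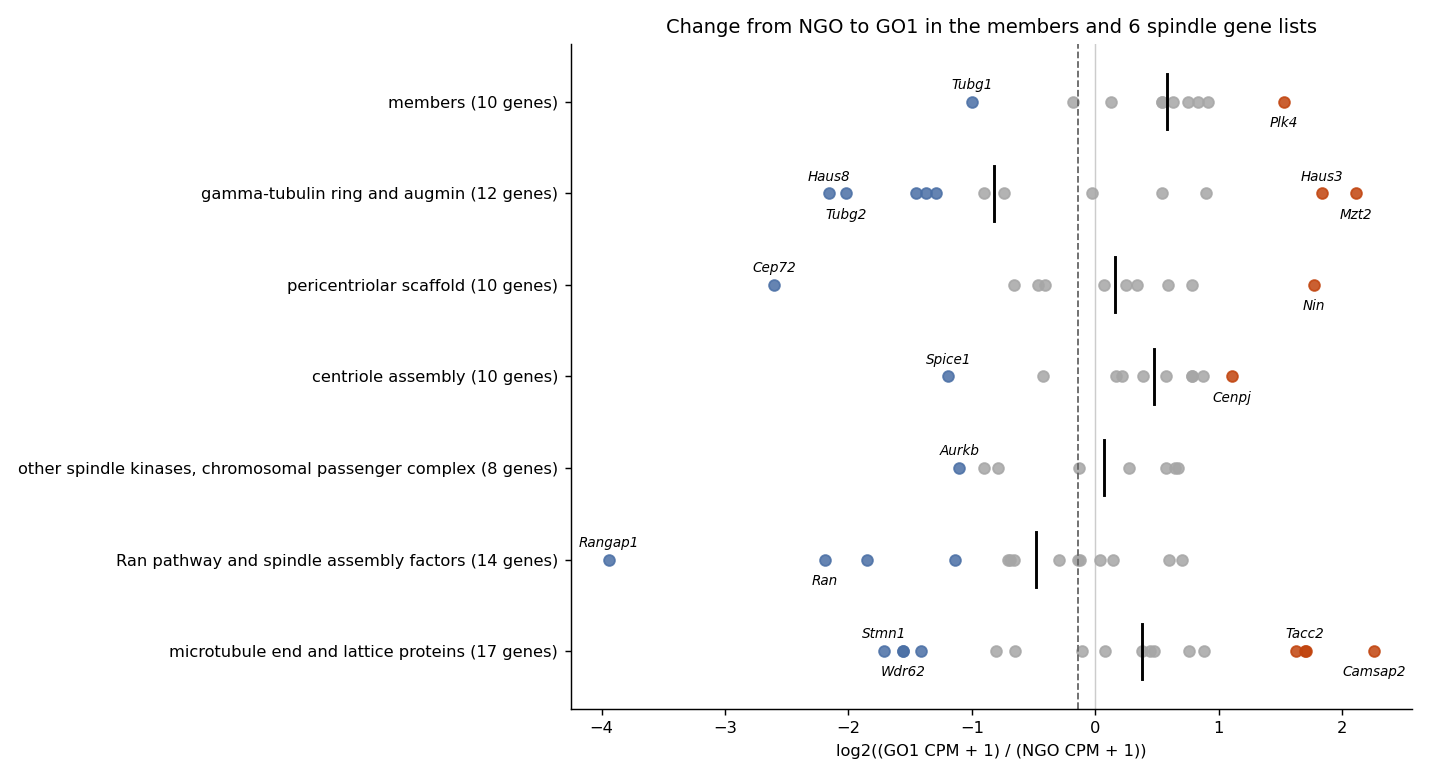
Difference from NGO to GO1 as log2((GO1 CPM + 1)/(NGO CPM + 1)) on the horizontal axis for the 10 members and 6 lists of spindle genes. Points are genes in the stage sums, orange where higher and blue where lower past the size rule. Black bars are list medians and the dashed line the median of all genes (−0.14), to the right of which lies the median of the members (0.58).

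No gene of the 67 at 10 CPM or more passed the rule from GO1 to GO2 in the sums, *Cep72* alone was higher from GO2 to GO3, and *Haus8* (2.03-fold, 1.96 to 2.11) and *Rangap1* (3.46-fold, 3.04 to 3.94) were higher from GO3 to FGO. *Cep72* was near the minimum in GO3, at 10.5 CPM in the sums and 9.99 at matched depth, where it did not pass. *Haus8* did not pass at matched depth either (92.3 CPM in GO3 and 148.6 in FGO), and *Rangap1* did (4.95 and 23.3 CPM). Few genes of any kind passed in these steps, with shares over all genes of 0.109% to 3.54% in either direction. From NGO to FGO 6 of 70 genes were higher and 7 lower, against 11.3% and 16% of all genes. At matched depth the split of that comparison was 0 higher and 12 lower, and with TMM factors 10 higher and 5 lower. The shares over all genes were not counted in these 2 settings. The median log2 difference over all genes also moved, from −0.26 at matched depth to 0.05 with TMM factors. These splits therefore cannot be read as particular to the spindle genes.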

How the data were processed

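Oocytes of 5 growth stages were measured by single-cell RNA-seq in 4 libraries. The authors assigned reads to barcodes, trimmed and aligned these to the mm9 transcriptome, collapsed copies of 1 molecule by UMI and deposited raw counts (UMIs for each gene in each cell), not normalized. The 223 deposited cells all passed the study's limits on genes and UMIs per cell, and no doublet caller was run on hand-picked cells. Whether counting used strand is not given in the sources used here. The iscCOOL-seq samples of the series were not analysed here.

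For every stage the UMIs of all its cells were added and scaled to 1000000 (CPM, not divided by gene length). Levels carry exact Poisson intervals, ratios exact intervals from the binomial split of both counts, and shares of cells Clopper-Pearson intervals. Named were all 10 members, in each list up to 2 genes with the largest rise and 2 with the largest fall past the rule from NGO to GO1, and for *Plk4* and *Tubg1* the 2 genes nearest in pattern. The members and lists were chosen with earlier results of these data known. The size rule was run on simulated stage sums with counting error only and planted changes well past the 2-fold limit. The simulation held no cells of uneven depth, so it does not cover that, nor genes near the limits. Alternatives were DESeq2 1.42.0 size factors, edgeR 4.0.16 TMM factors, the mean over cells, leaving out the 10 deepest cells per stage, cells thinned to 20000 UMIs, no minimum or 50 CPM, 1.5-fold, and, chosen after seeing the data, cells with 200000 to 1500000 UMIs. DESeq2 and edgeR served for scaling only. Gene positions are from GENCODE vM1 (NCBIM37). 1 gene of the lists is counted but not reported by name here. Tools were R 4.3.3 and Python 3.11.15 with scipy 1.17.1, pandas 2.3.3, numpy 2.4.6 and, for figures, matplotlib 3.10.9.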

Additional observations from a re-analysis of the deposited data

How the results depend on the processing

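No paired analysis was possible because the result comes from no test and the cells carry no library number. Between NGO and GO1 the count of 2 members past the size rule became 4 without the 10 deepest cells of each stage (*Plk4* higher, *Aurka*, *Plk1* and *Tubg1* lower) and 6 at 1.5-fold. From GO1 to GO2 the count of 0 became 2 with the mean over cells (*Plk1*, *Tubg1*), 3 without the deepest cells (also *Aurka*), 1 in thinned cells and 1 at matched depth (*Plk1* in both), and 1 at 1.5-fold (*Cep192*, lower). From NGO to FGO the count of 1 became 2 with DESeq2 size factors, 4 with TMM factors and 5 at 1.5-fold, and 0 with the mean over cells, in thinned cells and at matched depth. For the later steps (GO2 with GO3, GO3 with FGO) it was 0 in all 9 alternatives. Shares over all genes were counted only in the sums and, from NGO to GO1 and from GO1 to GO2, at matched depth. The counts in the other settings therefore show how the result moves, and not how the members differ from other genes.

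The 24 list genes past the rule from NGO to GO1 became 37 with the mean over cells, 38 each without the deepest cells, in thinned cells and at matched depth, and 46 at 1.5-fold. From GO1 to GO2 the count of 0 became 6 with the mean over cells, 10 each without the deepest cells and in thinned cells, 8 at matched depth, 4 with no minimum CPM and 9 at 1.5-fold. From GO2 to GO3 the count of 1 became 0 with either scaling and at 50 CPM, 3 each without the deepest cells, at matched depth and with no minimum, 9 in thinned cells and 7 at 1.5-fold. From GO3 to FGO the count of 2 became 4 with the mean over cells, 8 in thinned cells, 6 with no minimum, 1 at 50 CPM and 12 at 1.5-fold. With either scaling the count stayed at 2 but was made up of 1 gene higher and 1 lower, so not of the same 2 genes. From NGO to FGO the count of 13 became 8 at 50 CPM and 30 at 1.5-fold. The list counts have the same limit as those of the members, with no shares over all genes in most of these settings.

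From NGO to GO1 no member changed sign under either scaling, which moved the median of all genes from −0.14 to −0.04 and 0.01. *Aurka* and *Plk1* did so with the mean over cells (−0.72 each), without the deepest cells (−1.03 and −1.25), in thinned cells (−0.71 and −0.67) and at matched depth (−0.73 and −0.76). In the other 4 comparisons 0 to 6 of the 10 members changed sign, depending on the setting. The cause was not tested. Depth limits *Cep192*, with at most 837 UMIs in a stage, and in the GO1 sums 6 cells hold 70.9% of the UMIs. The spread between libraries and mice is not known.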
